A study of Mus musculus with 16 samples.

Results

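A set of 1312 H3K27me3 peaks was called in Myc-ESCs beside, but not on, regions bound by Suz12. Each of them had no LIF-ESC H3K27me3 peak within 1000 bp and no H3K4me3 or Suz12 peak of either culture within 1000 bp, while a Suz12 peak of LIF-ESCs or Myc-ESCs lay within 10000 bp. They are called flanking peaks here, and they made up 7.85% of the 16717 H3K27me3 peaks of Myc-ESCs (95% Wilson interval 7.45 to 8.27%). They were chosen by the peak positions of all 6 lists, so their absence from LIF-ESCs, their distance limits and their lack of H3K4me3 follow from the choice and are no findings. Myc-only means that no LIF-ESC peak was listed, not that the mark was absent.

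The study compared H3K4me3, H3K27me3 and Suz12 by ChIP-sequencing in MycER mouse embryonic stem cells (ESCs), which are R1 cells that carry Myc fused to the hormone-binding part of the estrogen receptor. LIF-ESCs received LIF at 100 units per ml and no 4-hydroxytamoxifen (OHT), whereas Myc-ESCs received 50 nM OHT, which activates the fusion protein, and no LIF. Both cultures carried the transgene and grew without feeders on gelatin with FCS and vitamin C, and the labels do not say how many clones were used. OHT and the absence of LIF changed together, so their parts in any difference between the cultures cannot be told apart.

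Of the 16 libraries named in the labels 4 are inputs, and every antibody was used on 2 libraries per culture, but the authors deposited 1 peak list for each culture and antibody. No difference could therefore be set against replicate error, no test was run, and depth is unknown. Intervals are 95% Wilson intervals that cover counting error only and treat regions as independent. H3K4me3 peaks lay at the start sites of 8 of 8 pluripotency genes in both cultures, among them Pou5f1, Nanog and Esrrb, and at 2 of the 7 annotated genes of other cells (Myod1 and Gfap).

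Suz12 is a core subunit of Polycomb repressive complex PRC2, which trimethylates lysine 27 of histone H3. In ESCs, PRC2 sits mainly on CpG-rich promoters of silent developmental genes, many of which also carry H3K4me3 and are then called bivalent. PRC2 also binds the mark that it writes, and H3K27me3 can extend from the sites where the complex is recruited into neighbouring chromatin.

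Suz12 peaks of both cultures within 1000 bp of each other were joined into 6065 domains, and the flanking peaks lay nearest to 787 of them (13%). The name Polycomb domain describes these only in part: 338 of the 787 (42.9%) had a Suz12 peak of at least 1000 bp in either culture, and 503 (63.9%) a Suz12 score of at least 100. The score is the MACS value for the significance of a peak, the negative log10 of its p-value multiplied by a constant, and the lowest score listed was 50. The remaining domains were short or weak, and 582 flanking peaks (44.4%) lay beside 253 domains that had no H3K4me3 and no Suz12 peak of 1000 bp. All of them are called flanked Suz12 domains here, without regard to their strength.

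The flanking peaks were short and low. Their median length was 150 bp (quartiles 140 and 180, range 63 to 2596) and they covered 243 kb in all. Their median score was 60.1 (quartiles 54.8 and 70.8), and 89 of them (6.78%, interval 5.55 to 8.27%) reached 100. Among the 2254 Myc-only H3K27me3 peaks with no H3K4me3 nearby and no Suz12 within 10000 bp, the isolated peaks, the share was 3.50% (interval 2.82 to 4.35%). Most flanking peaks thus stood near the calling limit of the list.

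Sequences of 8 flanking peaks are given to show what kind of DNA carried the calls, with CpG dinucleotides in capitals. The first 5 belong to domains with many flanking peaks and no gene at the domain, and the last 3 to developmental or neuronal genes with many flanking peaks; which of them to print was chosen after their values were seen. They were read from the forward strand of GRCm38. The peak of the Gm5114 domain (chr7:39309960-39310160, score 149) lay between genes, as did that of the Gpr63 domain (chr4:25096871-25097153, score 124) and that of the 1700010N08Rik domain (chr7:38954177-38954400, score 108). The peak of the 3632454L22Rik domain (chrX:135048310-135048607, score 119) lay in intron 2 of 3632454L22Rik, and that of the Ulk4 domain (chr9:121223516-121223733, score 97.8) in intron 17 of Ulk4. The peaks of the Pcdh8 domain (chr14:79781749-79781899, score 63.2) and the Foxa2 domain (chr2:148055404-148055595, score 74.0) lay between genes, and that of the Cacna1e domain (chr1:154721365-154721513, score 53.5) in intron 1 of that gene.
Gm5114 domain: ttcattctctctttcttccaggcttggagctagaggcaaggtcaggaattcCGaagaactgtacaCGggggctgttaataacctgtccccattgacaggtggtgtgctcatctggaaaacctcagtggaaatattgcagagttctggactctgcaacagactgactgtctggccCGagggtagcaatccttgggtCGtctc
Gpr63 domain: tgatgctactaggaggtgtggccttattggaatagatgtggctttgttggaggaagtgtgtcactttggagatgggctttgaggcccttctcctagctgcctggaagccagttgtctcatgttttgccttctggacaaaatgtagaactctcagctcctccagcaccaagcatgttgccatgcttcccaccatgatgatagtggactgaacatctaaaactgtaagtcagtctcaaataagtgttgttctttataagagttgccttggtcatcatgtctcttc
1700010N08Rik domain: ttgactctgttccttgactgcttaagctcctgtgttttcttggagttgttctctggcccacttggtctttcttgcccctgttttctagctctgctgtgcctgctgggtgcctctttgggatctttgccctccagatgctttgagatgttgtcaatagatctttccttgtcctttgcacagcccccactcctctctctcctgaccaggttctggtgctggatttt
3632454L22Rik domain: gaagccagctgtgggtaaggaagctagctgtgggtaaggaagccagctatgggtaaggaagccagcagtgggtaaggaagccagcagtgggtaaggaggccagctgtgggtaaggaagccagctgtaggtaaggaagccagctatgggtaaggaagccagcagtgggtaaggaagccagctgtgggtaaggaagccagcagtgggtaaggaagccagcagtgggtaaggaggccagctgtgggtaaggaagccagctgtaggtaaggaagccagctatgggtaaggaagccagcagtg
Ulk4 domain: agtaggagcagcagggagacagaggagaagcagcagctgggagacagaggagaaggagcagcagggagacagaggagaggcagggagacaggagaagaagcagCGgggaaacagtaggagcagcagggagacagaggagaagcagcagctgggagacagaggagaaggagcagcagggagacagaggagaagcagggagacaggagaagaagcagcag
Pcdh8 domain: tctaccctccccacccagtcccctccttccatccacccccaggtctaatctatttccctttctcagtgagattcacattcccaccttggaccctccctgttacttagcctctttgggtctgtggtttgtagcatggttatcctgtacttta
Foxa2 domain: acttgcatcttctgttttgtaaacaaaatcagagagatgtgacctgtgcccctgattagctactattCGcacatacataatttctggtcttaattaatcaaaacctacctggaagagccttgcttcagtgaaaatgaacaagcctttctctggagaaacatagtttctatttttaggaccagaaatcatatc
Cacna1e domain: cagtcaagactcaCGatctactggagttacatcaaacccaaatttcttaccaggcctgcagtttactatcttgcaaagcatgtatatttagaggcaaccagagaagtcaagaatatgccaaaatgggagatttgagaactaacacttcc

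These sequences held few CpGs, from 0 to 4, unlike the CpG islands at which PRC2 is usually found. Over all flanking peaks the median was 1 CpG, and 546 (41.6%) had none. The median ratio of observed to expected CpGs was 0.120 (quartiles 0 and 0.257), and the median GC content was 40.2% (quartiles 34.7 and 45.9%). The sequence at 1 to 10 kb from Suz12 that could have held a flanking peak had a GC content of 44.3% and 9.51 CpGs per kb. In the nearest bin, at 1 to 2 kb, the flanking peaks held 6.44 CpGs per kb against 9.48 in that sequence. The calls therefore held fewer CpGs than the sequence that could have held them at that distance, taken over all domains together. The sequence around each single flanking peak was not measured. At the isolated peaks the median ratio was 0.125.

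Repeats made up part of the set. At least 50% of the bases were repeat-masked in 269 flanking peaks (20.5%, interval 18.4 to 22.8%), against 46.0% (interval 44.0 to 48.1%) of the isolated peaks and a median of 19.1% masked bases per flanking peak. The printed peak of the 3632454L22Rik domain consists of a short unit repeated in tandem, matching itself at 93.6% of positions after a shift of 95 bases. In all, 15 flanking peaks matched themselves at 80% or more of their positions at some shift of 2 to 100 bases, and 5 of these had a score of at least 100. The part of repeats in these calls was not tested.

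Most flanking peaks lay outside promoters. This follows in part from the rule, which leaves out peaks within 1000 bp of H3K4me3 or Suz12. The share of eligible sequence near start sites was not measured. Between genes there were 745 (56.8%, interval 54.1 to 59.4%), in introns 432 (32.9%), in exons 41 (3.12%) and within 2500 bp of a start site 94 (7.16%). The Myc-only peaks at Suz12 without H3K4me3, the class nearest to the domains, were within 2500 bp of a start site in 13.9% of 2365 cases (interval 12.6 to 15.4%), and the isolated peaks in 3.77% (interval 3.06 to 4.64%). The flanking peaks stood between the 2 classes in this respect. Their median distance to the nearest start site was 10732 bp (quartiles 4095 and 56138).

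Flanking peaks were densest next to Suz12 and thinned with distance. Their median distance to the nearest Suz12 peak was 2455 bp (quartiles 1554 and 4266), 38.8% lay within 2000 bp and 79.5% within 5000 bp. Counted per Mb of eligible sequence, which is all assembled sequence more than 1000 bp from any LIF-ESC H3K27me3, H3K4me3 or Suz12 peak, there were 109 at 1 to 2 kb, 35.0 at 2 to 3 kb, 17.7 at 3 to 4 kb and 9.94 at 4 to 5 kb. At 9 to 10 kb the density had fallen to 3.73 per Mb. It continued down without a step at the limit of the rule, to 2.76 per Mb at 10 to 20 kb, 1.39 at 20 to 50 kb and 0.827 beyond 50 kb. Over the whole span of 1 to 10 kb the density was 17.6 per Mb, 21.3 times that beyond 50 kb (exact interval from the counts 19.8 to 22.9).

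**Figure D1:**
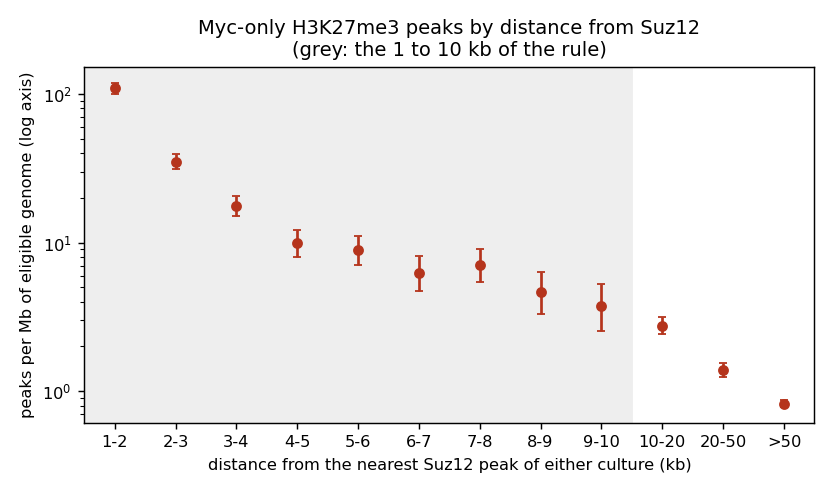
Myc-only H3K27me3 peaks without H3K4me3 or Suz12 within 1000 bp, per Mb of eligible sequence (log axis), against distance from the nearest Suz12 peak of either culture in kb; bars are exact 95% Poisson intervals of the counts. The density falls from 109 per Mb at 1 to 2 kb to 3.73 at 9 to 10 kb and 0.827 beyond 50 kb.

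The median height of the peaks varied little with distance. Scores of at least 100 were more frequent over 1 to 10 kb as a whole (6.78%) than beyond 50 kb. The median score was between 58.2 and 61.9 in each 1-kb bin from 1 to 10 kb, and 57.8 beyond 50 kb. The share of peaks with a score of at least 100 ranged from 2.5 to 10.9% in the 1-kb bins from 1 to 10 kb, with no steady fall. It was 7.47% at 1 to 2 kb and highest at 6 to 7 kb. Farther out it was 5.31% at 10 to 20 kb, 4.30% at 20 to 50 kb and 3.13% beyond 50 kb. With H3K27me3 limited to such scores in both cultures, the density at 1 to 10 kb was 47.8 times that beyond 50 kb. At the inner limit the nearest peak inside lay 1001 bp from Suz12, near Gm13470, with a score of 50.2, and the nearest outside lay at 999 bp, near Olig2, with a score of 63.4. At the outer limit the farthest inside lay at 9941 bp near 4930572O03Rik with a score of 58.5, and the closest outside at 10075 bp near Gm21083 with a score of 66.7.

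Flanking peaks were rarely alone. Another Myc-ESC H3K27me3 peak lay within 1000 bp of 696 (53.0%, interval 50.3 to 55.7%) and within 5000 bp of 1138 (86.7%), and for 635 (48.4%) the nearest such peak was itself a flanking peak. Of the domains, 541 had a single flanking peak and 246 had 2 or more, 87 had them on both sides, and 3 had 11. An H3K4me3 peak lay in, or reached into, the gap between the flanking peak and its domain in 375 cases (28.6%).

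In LIF-ESCs the same rule with the cultures exchanged gave 87 of 3120 H3K27me3 peaks (2.79%, interval 2.27 to 3.43%) beside 75 domains, 13 of which also had flanking peaks of Myc-ESCs. These LIF-only peaks were also denser near Suz12, with 1.17 per Mb at 1 to 10 kb and 0.104 beyond 50 kb. The numbers depended on the lengths of the lists: with every list limited to as many top-scoring peaks as the shorter list of its antibody, 90 Myc-only and 135 LIF-only peaks met the rule, so the order of the cultures turned. With H3K27me3 limited to scores of at least 100, 127 Myc-only peaks met the rule, against 0 of 339 LIF-ESC peaks, which allows a share of up to 0.885%. The score grows with depth, so neither count separates depth from a difference in the mark.

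Without regard to the other culture, 1500 Myc-ESC and 207 LIF-ESC H3K27me3 peaks lay at 1 to 10 kb from Suz12 and away from H3K4me3, covering 338 and 64.7 kb. These were 8.97% of the Myc-ESC list and 6.63% of the LIF-ESC list. Of the 207 LIF-ESC peaks, 120 had a Myc-ESC peak within 1000 bp, so most of them had a Myc-ESC peak close by. With both H3K27me3 lists at 3120 peaks, 141 Myc-ESC and 207 LIF-ESC peaks lay in this zone, but the Myc-ESC peaks covered more sequence, 100.5 against 64.7 kb.

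The flanked Suz12 domains had longer Suz12 peaks and more often carried H3K27me3 than the others. The longest Suz12 peak of a domain had a median of 631 bp (quartiles 224 and 1944) at the 787 flanked domains and 398 bp (quartiles 210 and 1102) at the 5278 without flanking peaks. A Myc-ESC H3K27me3 peak was present at 624 flanked domains (79.3%, interval 76.3 to 82.0%) and at 47.2% (interval 45.9 to 48.5%) of the others. LIF-ESC H3K27me3 was present at 30.5% (interval 27.4 to 33.8%) of the flanked domains and 17.6% (interval 16.6 to 18.7%) of the others. The flanking peaks come from the same Myc-ESC H3K27me3 list, and the rule also used the LIF-ESC H3K27me3 and Suz12 lists. These differences are therefore not independent of the choice. H3K4me3 was less frequent, at 508 flanked domains (64.5%, interval 61.1 to 67.8%) against 86.7% (interval 85.7 to 87.6%). Part of this difference is set by the rule, since H3K4me3 removes sequence nearby. Counted per Mb of eligible sequence the flanking peaks were also fewer at domains with H3K4me3, 10.7 against 59.4. This rate does not remove the effect of the rule. The sequence lost around H3K4me3 lies close to the domain, where flanking peaks were densest, and the rate was not matched for distance.

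These differences depended on weak Suz12 calls in size but not in direction. Among domains with a Suz12 score of at least 100, 503 were flanked and 3164 were not. The median of their longest Suz12 peaks was 1468 and 894 bp. H3K4me3 was present at 87.5% of the flanked (interval 84.3 to 90.1%) and 95.3% (interval 94.5 to 95.9%) of the others, and Myc-ESC H3K27me3 at 87.9% (interval 84.7 to 90.4%) and 62.3% (interval 60.6 to 64.0%). These values too come from lists that chose the flanking peaks. When the H3K27me3 score was raised to at least 100 instead, 20 of 78 flanked domains had H3K4me3 (25.6%).

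The density of flanking peaks also differed with the H3K27me3 state of the domain. Around the 978 domains with H3K27me3 in both cultures there were 33.3 flanking peaks per Mb of eligible sequence, and around the 2137 with the mark in Myc-ESCs alone 27.2. Around domains with H3K27me3 in LIF-ESCs alone there were 8.93 per Mb, and around the 2759 with none 5.97. At 400 of the 787 flanked domains (50.8%) the domain itself was listed with H3K27me3 in Myc-ESCs and not in LIF-ESCs. Both readouts come from the same list, which also chose the flanking peaks.

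Suz12 was called in both cultures at 442 flanked domains (56.2%), in Myc-ESCs alone at 284 (36.1%) and in LIF-ESCs alone at 61 (7.75%). At the 5278 domains without flanking peaks these shares were 53.0, 32.3 and 14.7%. Calls in both cultures and in Myc-ESCs alone were thus about as frequent at flanked domains as at the others. Calls in LIF-ESCs alone were less frequent at flanked domains. Among domains called in both, Suz12 covered more bases in Myc-ESCs at 391 of the 442 flanked (88.5%, interval 85.1 to 91.1%) and at 77.4% (interval 75.8 to 78.9%) of the 2797 others. The Suz12 lists covered 6.22 Mb in LIF-ESCs and 9.38 Mb in Myc-ESCs, so a longer span in Myc-ESCs was common throughout. The Suz12 edge lay further out in Myc-ESCs about as often on the side of the flanking peaks as on the other. Over 406 domains called in both cultures with flanking peaks on 1 side, this was so on that side in 75.4% (interval 71.0 to 79.3%) and on the other side in 75.1% (interval 70.7 to 79.1%). The median shift of the edge was 307 bp on the side of the flanking peaks and 292 bp on the other, and the first was larger in 48.8% of domains (interval 43.9 to 53.6%). The rule left out H3K27me3 peaks within 1000 bp of Suz12 of either culture. An edge that had moved up to such a peak would have removed it from the set. The comparison therefore cannot decide whether the edge moved more on the side of new H3K27me3.

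At domains with H3K4me3, the density of flanking peaks rose with the length of the Suz12 peak. Domains were divided at the quartiles of their longest Suz12 peak, 211, 414 and 1201 bp. Ordered by rising length, the quartiles of domains with H3K4me3 had 4.18, 5.66, 8.62 and 20.4 flanking peaks per Mb, and 3.99, 5.42, 8.62 and 19.2% of them were flanked. Domains without H3K4me3 had 46.2, 78.7, 86.0 and 105 per Mb. This second order rested in part on few regions of the genome. Without 14 1-Mb stretches that held 10 or more flanking peaks each, the values were 40.9, 48.0, 52.2 and 34.3 per Mb without H3K4me3, and 4.19, 5.18, 7.30 and 20.3 with it. Other divisions of the domains showed no steady rise with length. Over all domains the quartiles had 20.2, 16.1, 12.1 and 22.0 flanking peaks per Mb. Domains with Myc-ESC H3K27me3 had 64.0, 39.4, 18.3 and 24.5, and those without it 8.36, 4.85, 4.50 and 5.77.

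**Figure D2:**
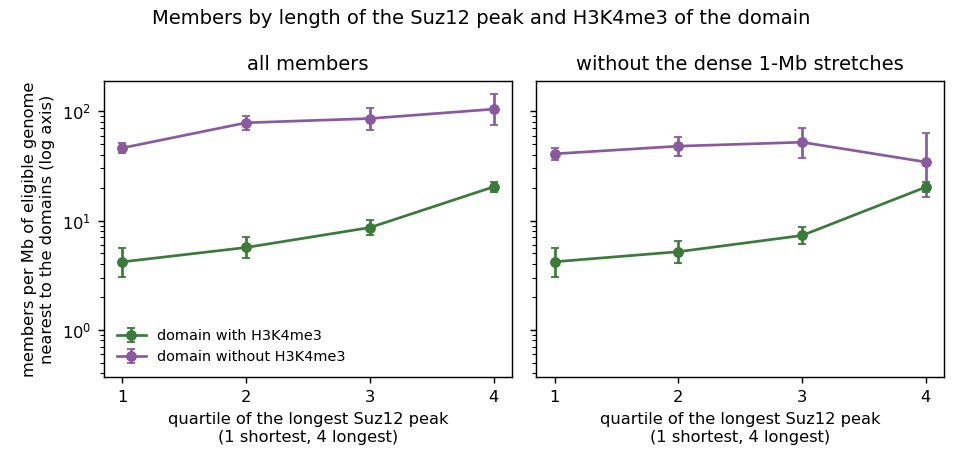
Flanking peaks per Mb of eligible sequence nearest to the domains (log axis) by quartile of the longest Suz12 peak, for domains with and without H3K4me3, with all flanking peaks (left) and without 14 dense 1-Mb stretches (right); bars are exact 95% Poisson intervals. At domains with H3K4me3 the density rises to 20.4 per Mb on the left and 20.3 on the right, and at domains without it the last quartile is highest, at 105, on the left and lowest, at 34.3, on the right.

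Most flanking peaks fell beside 2 kinds of domain. The first held 428 flanking peaks (32.6%) at 312 of 1719 domains with H3K4me3 and a Suz12 peak of at least 1000 bp. Of the 312, 271 lay at a gene's start site and 304 were called in both cultures. The density at this kind was 18.8 per Mb of eligible sequence, close to the 17.6 over all domains. Here the median distance was 1846 bp and 8 flanking peaks had a score of at least 100. The second held the 582 flanking peaks at 253 of 915 domains without H3K4me3 and with shorter Suz12 peaks, at 57.6 per Mb. Of the 253, 15 lay at a start site and 192 were called in Myc-ESCs alone. Here the median distance was 2909 bp, and 62 of the 89 flanking peaks with a score of at least 100 belonged to this kind. The other flanking peaks lay beside domains with H3K4me3 and a shorter Suz12 peak (256) or without H3K4me3 and with a longer one (46).

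**Figure D3:**
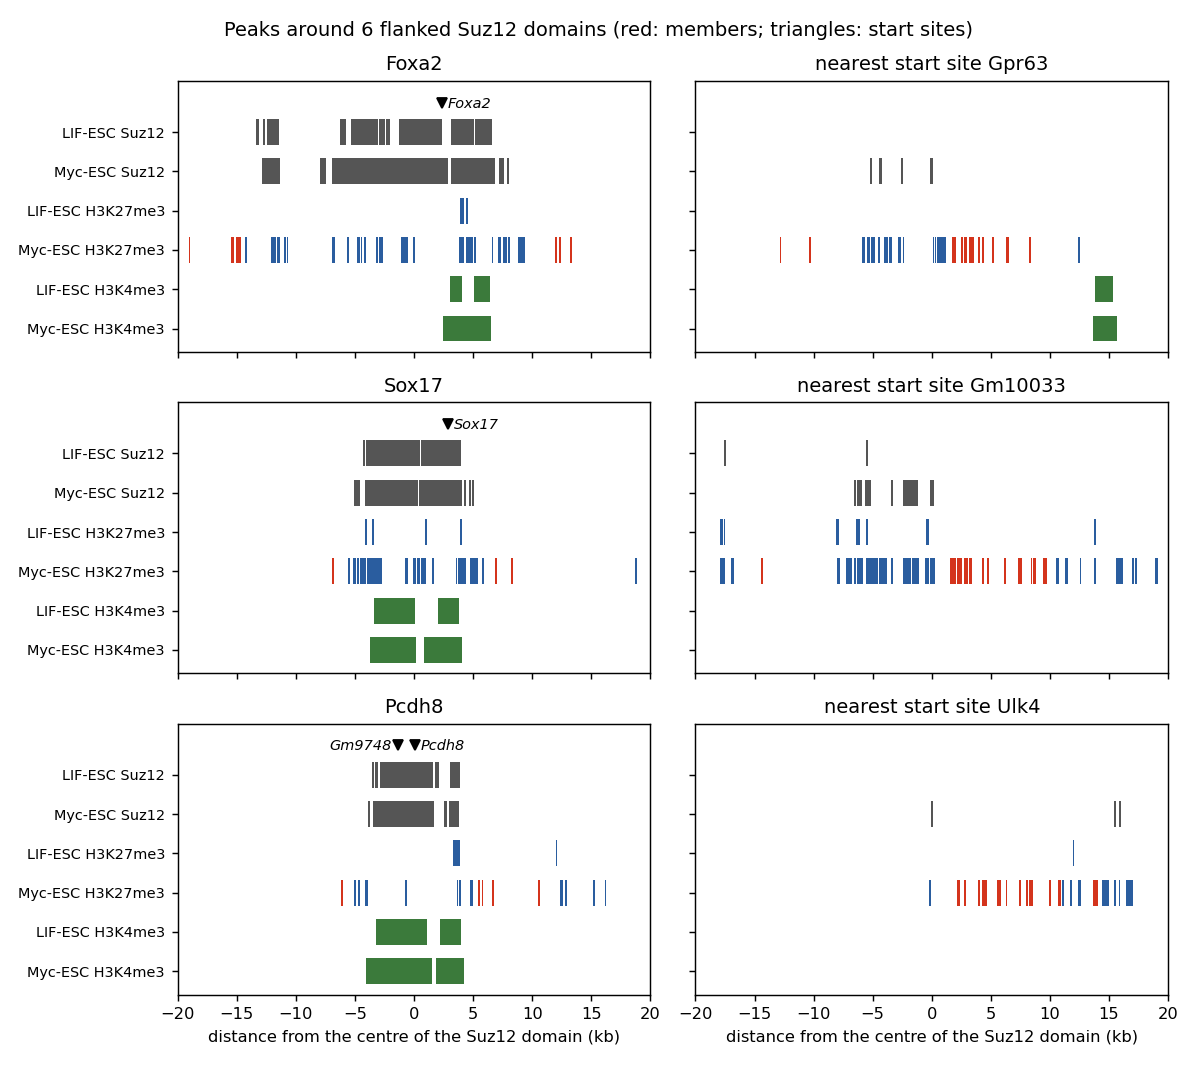
Peaks of all 6 lists around 6 flanked Suz12 domains, with flanking peaks in red, against distance from the centre of the domain in kb; black triangles mark start sites. At Foxa2, Sox17 and Pcdh8 the flanking peaks lie outside long Suz12 stretches of both cultures with H3K4me3, while at the domains nearest to Gpr63, Gm10033 and Ulk4 they follow short Suz12 peaks, without H3K4me3 at the domain.

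Genes were taken as flanked when a flanked Suz12 domain lay within 2500 bp of a start site. This held for 485 of the 4082 genes with a Suz12 domain (11.9%, interval 10.9 to 12.9%), against which each gene list is read. Genes that share a domain are each counted. Around domains with 1 such gene, 246 flanking peaks lay upstream of the gene and 250 downstream, or 11.0 and 11.3 per Mb of eligible sequence.

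Among homeobox factors, which specify body axes and cell identity, 30 of 153 genes with a Suz12 domain were flanked (19.6%, interval 14.1 to 26.6%), among them Barhl2, Barx2 and Hoxd1 with 2 flanking peaks each. Of the basic helix-loop-helix factors, many of them drivers of neuronal fate, 14 of 47 were flanked (29.8%, interval 18.7 to 44.0%), including Tal2 with 3, Atoh1 with 2 and Hes5 with 2. Of the Sox factors 5 of 15 were flanked (interval 15.2 to 58.3%), with Sox17, Sox1 and Sox30 first, and of the forkhead factors 6 of 27 (interval 10.6 to 40.8%), including Foxa2, Foxc1 and Foxd3. Of the T-box factors 1 of 12 was flanked (interval 1.49 to 35.4%), namely T, and of the Gata, Sall, Zic, Gli and Klf zinc-finger factors 1 of 29 (interval 0.611 to 17.2%), namely Zic4. Differences between these families were not tested.

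Of signalling ligands and receptors, 14 of 88 were flanked (15.9%, interval 9.72 to 25.0%), led by Bmp7, a bone morphogenetic protein, with 3 flanking peaks, and by Gdf6 and Lgr5. Ion channels and neurotransmitter receptors were flanked in 20 of 150 cases (13.3%, interval 8.80 to 19.7%), led by the calcium channel gene Cacna1e with 4, Gabra2 with 3 and Cacng2 with 2. Axon guidance genes were flanked in 8 of 48 cases, among them Epha5, Epha7 and Unc5d, and collagens in 4 of 18, among them Col13a1, Col2a1 and Col4a1. Solute carriers, which are transporters of small molecules, were flanked in 3 of 76 cases (3.95%, interval 1.35 to 11.0%), at Slc9a2, Slc12a5 and Slc41a2. Cadherins and protocadherins, which are adhesion proteins, were flanked in 22 of 80 cases (27.5%, interval 18.9 to 38.1%), led by Pcdh8, Pcdha2 and Pcdhb7, and many of these genes share the protocadherin cluster of chromosome 18. Of the cytosolic ribosomal proteins, a single gene had a Suz12 domain and it was not flanked.

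Long Suz12 peaks were common in several of these lists. Of the homeobox genes with a Suz12 domain, 92.8% were in the last quartile of Suz12 peak length, against 37.7% of all genes with a domain. Within that quartile 29 of 142 homeobox genes were flanked (20.4%, interval 14.6 to 27.8%), beside 19.7% (interval 17.8 to 21.7%) of all 1540 genes of the quartile. The share of homeobox genes was therefore close to that of all genes with Suz12 peaks of such length. For basic helix-loop-helix factors the share in the quartile was 12 of 31 (38.7%, interval 23.7 to 56.2%). For cadherins and protocadherins it was 12 of 47 (25.5%, interval 15.3 to 39.5%) in that quartile and 10 of 33 (30.3%, interval 17.4 to 47.3%) in the others, where 7.16% of all genes were flanked.

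**Figure D4:**
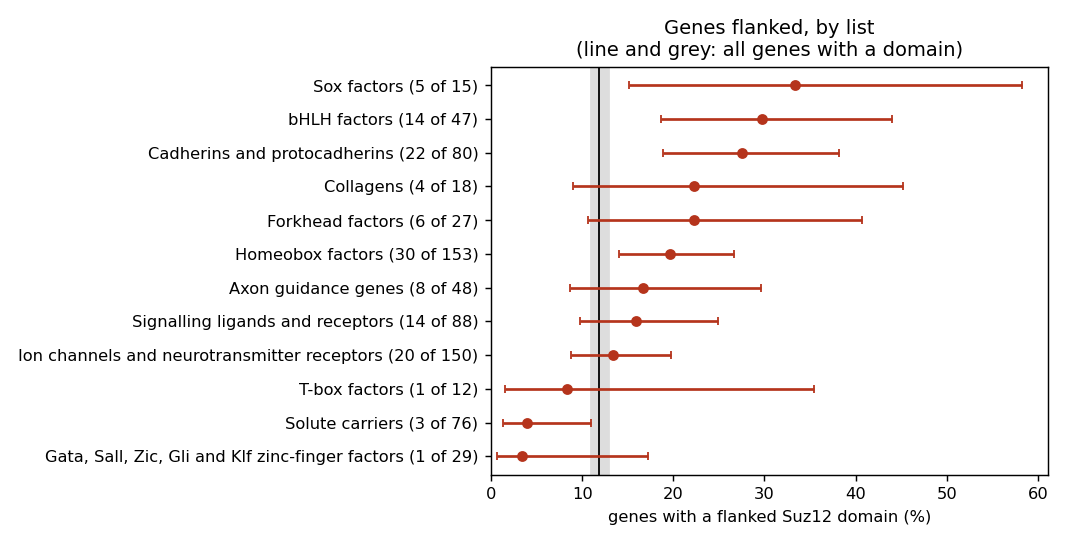
Share in percent of genes with a Suz12 domain whose domain had a flanking peak, for 12 gene lists with the number flanked and the number with a domain; bars are 95% Wilson intervals, and the line with its grey band is the 11.9% of all genes with its interval. The intervals of Sox, basic helix-loop-helix, cadherin and homeobox genes lie above the line, that of solute carriers lies below it, and the other 7 include it.

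The largest number of flanking peaks at a gene of these lists was found at Pcdh8, a protocadherin, whose Suz12 domain spanned 7785 bp (chr14:79767363-79775147) and covered 6084 bp of sequence in LIF-ESCs against 6386 bp in Myc-ESCs. One flanking peak, nearest to Gm9748, lay 2142 bp from Suz12 on the other side (score 54.2), and 4 lay 1509, 1831, 2691 and 6601 bp away on the side of the Pcdh8 promoter with scores of 53.3, 54.8, 51.2 and 63.2. On the side of each of the 5, an H3K4me3 peak reached into the gap between Suz12 and the flanking peak.

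At Cacna1e, which encodes a voltage-gated calcium channel, 3 flanking peaks lay in intron 1, at 1836, 2731 and 3479 bp, and 1 lay between genes at 3738 bp. Their scores were 53.3, 53.2, 53.5 and 53.3, within 1 unit of each other and close to the limit of the list. Suz12 covered 1733 bp of sequence in LIF-ESCs against 2281 bp in Myc-ESCs there. At Gabra2, a subunit of the GABA receptor, the scores were also alike, at 55.9 in intron 2 and 55.8 and 55.7 between genes.

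At Foxa2, a forkhead factor of endoderm and midline, 3 flanking peaks were assigned to the domain. They lay on 1 side, 3919, 4269 and 5185 bp from Suz12, with scores of 72.6, 74.0 and 62.1. Further flanking peaks on the other side, with scores of 54.8, 109, 53.1 and 103, lay nearer to other Suz12 peaks and were not counted at this domain. The Suz12 domain (chr2:148035138-148051134) covered 10829 bp of sequence in LIF-ESCs against 14628 bp in Myc-ESCs, and its longest Suz12 peak measured 2723 and 9802 bp. At Bmp7 the flanking peaks lay 1807, 3170 and 5406 bp away with scores of 79.3, 53.3 and 56.6, and Suz12 covered 2514 and 5344 bp. Tal2, a basic helix-loop-helix factor, had no LIF-ESC Suz12 peak at its domain, where Myc-ESC Suz12 covered 3399 bp.

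Of the 8 genes whose chromatin the study names, 3 were flanked. In a separate ChIP assay the study reported PRC2 binding and H3K27me3 that depended on Myc at Dkk1, but not at Sox17 and Fzd1. Sox17, an endoderm factor, had 1 flanking peak on 1 side at 1676 bp and 2 on the other at 1768 and 3113 bp, with scores of 57.2, 55.5 and 53.8, around a Suz12 domain of 10199 bp (chr1:4489346-4499544). Dkk1, a secreted Wnt antagonist, had 1 at 1711 bp with a score of 59.4, and Suz12 covered 745 bp of sequence in LIF-ESCs against 2573 bp in Myc-ESCs. Fzd1, a Wnt receptor, had 1 at 1397 bp with a score of 75.8, and Suz12 covered 3552 and 4614 bp. Sfrp1, Fzd7, Socs3, Sfrp5 and Apcdd1 had none. Over the 35 domains of all genes named from the lists or the study, Suz12 covered more bases in Myc-ESCs at 34, Myc-ESC H3K27me3 was present at 34 and LIF-ESC H3K27me3 at 16. Over all flanked domains these shares were 85.8, 79.3 and 30.5%. All 35 named domains carried H3K4me3, against 64.5% of all flanked domains, so they do not represent the whole set.

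The domains with the most flanking peaks were of the other kind. None of the first 10 lay within 2500 bp of a start site or had H3K4me3, 9 had Suz12 in Myc-ESCs alone and 1 in LIF-ESCs alone, and the Suz12 score ranged no higher than 77.0. A Suz12 peak of 272 bp on chromosome 4 (chr4:25093620-25093891), 120200 bp from the start site of Gpr63, had 11 flanking peaks, all on the same side, with scores of 55.5 to 124. One of 313 bp on chromosome 8, nearest to Gm10033, had 11 with scores of 56.7 to 97.6, and one of 222 bp on chromosome 7, nearest to Gm5114, had 11 with scores of 51.2 to 149. The Suz12 scores of these 3 were 72.7, 77.0 and 73.3. The domains near Gpr63 and Gm10033 did not stand alone, since other Suz12 peaks lay nearby but more than 1000 bp away. Measured from the domain's centre, Myc-ESC Suz12 peaks began at -5212 bp near Gpr63 and reached to -1203 bp near Gm10033. A LIF-ESC Suz12 peak began at -5578 bp near Gm10033. These domains were ranked by their number of flanking peaks, so that number follows from the choice.

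The 10 highest-scoring flanking peaks were found in 2 places. Of these, 8 lay on chromosome 8 between 19769733 and 20638803 bp, with scores of 217 to 564, in adjoining 1-Mb stretches that also hold defensin genes, which encode antimicrobial peptides. The highest (chr8:20312242-20314204, score 564) measured 1963 bp, was 96.3% repeat-masked and lay 7332 bp from a Suz12 domain listed in Myc-ESCs alone. The next 2, on the same chromosome, had scores of 486 and 455. The other 2 lay in intron 17 of Ulk4, which encodes a serine/threonine kinase-like protein, with scores of 227 and 214, and were 96.1 and 96.2% repeat-masked.

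Most flanking peaks were spread over the genome, with a minority in dense stretches. They were found in 522 of the 1-Mb stretches, of which 280 held 1 each, while 14 stretches held 10 or more and together 241 flanking peaks (18.4%), among them 45 of the 89 with a score of at least 100. The stretch with the most, 39, was chr7:62000001-63000000, which holds Magel2, Mkrn3, Ndn and Peg12, genes of an imprinted cluster that are expressed from the paternal copy. There H3K27me3 peaks numbered 9 in LIF-ESCs against 222 in Myc-ESCs, and Suz12 peaks 35 against 80. Over the whole genome the lists held 3120 against 16717 H3K27me3 peaks and 11305 against 13907 Suz12 peaks, and the stretches were picked for their Myc-only H3K27me3 peaks, so an excess of Myc-ESC H3K27me3 in them follows largely from the choice. In chr8:20000001-21000000, with 26 flanking peaks, H3K27me3 peaks numbered 52 and 205 and Suz12 peaks 1 and 69, and in chr18:37000001-38000000, the protocadherin cluster, with 19, they numbered 12 and 189 for H3K27me3 and 62 and 153 for Suz12. H3K4me3 peaks in these 3 stretches numbered 8 and 7, 5 and 4, and 49 and 50. In chr8:69000001-70000000, which had 27 flanking peaks, they numbered 36 in LIF-ESCs but 26 in Myc-ESCs, and in chr9:121000001-122000000, which had 12, there were 23 and 16.

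**Figure D5:**
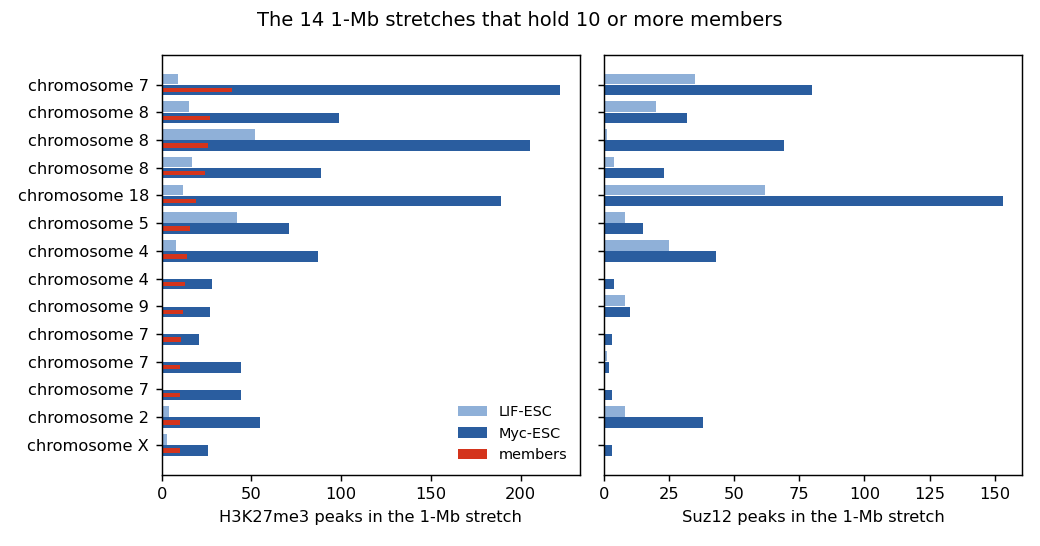
Number of H3K27me3 peaks (left) and Suz12 peaks (right) in LIF-ESCs and Myc-ESCs in each of the 14 1-Mb stretches with 10 or more flanking peaks, whose number is drawn in red inside the Myc-ESC bar. H3K27me3 peaks number 222 in Myc-ESCs against 9 in LIF-ESCs in the first stretch and 26 against 3 in the last; the stretches were picked for Myc-only H3K27me3 peaks, and the whole Myc-ESC list holds 16717 peaks against 3120.

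Other dense stretches held gene clusters or few genes, among them chr8:19000001-20000000 with beta-defensin genes (24 flanking peaks), chr5:15000001-16000000 with Speer4 genes (16), chr4:65000001-66000000 with Pappa (14) and chr7:9000001-10000000 with vomeronasal receptor genes (10). On chromosome X, 9 of the 10 flanking peaks of the stretch at chrX:135000001-136000000 were tandem repeats, in the neighbourhood of 3632454L22Rik. Near-identical copies of genes are frequent in several of these clusters, and the authors kept reads with a unique best match, so sequence shared in full by several copies is not measured. Without the 14 stretches, 1071 flanking peaks beside 705 domains remained, and the share of flanked domains with H3K4me3 was 69.9%.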

How the data were processed

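H3K4me3, H3K27me3 and Suz12 were profiled by ChIP-sequencing in LIF-ESCs and Myc-ESCs, with 2 libraries per culture and antibody plus 4 inputs. According to the submitters' processing notes and the methods, the authors aligned reads to GRCm38 with Bowtie2 2.2.3, kept unique best matches and called peaks over background with MACS 1.4.2 at default parameters. The deposited lists, 1 for each culture and antibody, hold positions and a score, the negative log10 of the MACS p-value multiplied by a constant. Pooling of the libraries behind each list is not described in the sources used here. The lists give no read counts, so depth is unknown, and a deeper library yields more peaks and higher scores.

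Distances were measured between peak edges. Suz12 peaks within 1000 bp were merged into domains, and genes were assigned when a domain lay within 2500 bp of a start site of 44384 curated RefSeq transcripts (24808 symbols). Each flanking peak was assigned to its nearest domain. GC content, CpGs and soft-masked repeats were read from the GRCm38 genome. Shares carry 95% Wilson intervals (scipy 1.17.1), counts per Mb refer to eligible sequence, and no test was run, since peaks are not replicates. Python 3.11.15, numpy 2.4.6, pandas 2.3.3 and matplotlib 3.10.9 were used. On simulated data, 0 of 2000 distances differed from a plain loop and 0 of 1200 simulated peaks were put in a wrong class.

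The members, the 13 gene lists and the comparisons were chosen with earlier results of these data known. Named are the genes at the 10 domains with most flanking peaks and at the domains of the 10 highest-scoring ones, the genes named by the study where flanked, and up to 3 flanked genes of each list with most flanking peaks. Pou5f1, Nanog, Sox2, Esrrb, Zfp42, Klf4, Tdgf1 and Dppa5a served to check the cell type, and Alb, Afp, Ins2, Myod1, Cd3e, Ptprc, Hbb-b1 and Gfap as genes of other cells, of which Hbb-b1 was not matched. Of the 8 printed sequences that the rule gave, 5 are shown. The sequence of 1 flanking peak at a gene domain is not reported here. Coordinates count from 1 in GRCm38. Expression data and input libraries were not analysed here.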

Additional observations from a re-analysis of the deposited data

How the results depend on the processing

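Of 84 values under 12 other settings, 42 stayed within 1.5 times the reported count or within the reported interval and 42 moved, while the density of flanking peaks near Suz12 was above that beyond 50 kb under each setting tried. With H3K27me3 scores of at least 100, 127 flanking peaks lay beside 78 domains, the density ratio was 47.8, the median longest Suz12 peak 503.5 bp, and 25.6, 8.97 and 67.9% of domains had H3K4me3, LIF-ESC and Myc-ESC H3K27me3, with 0 LIF-only peaks. With lists of equal length, 90 lay beside 59 domains, the ratio was 48.7 and the shares 25.4, 27.1 and 64.4%, with 135 LIF-only peaks. An exclusion distance of 500 bp gave 2136 flanking peaks beside 1209 domains, a ratio of 31.2, H3K4me3 at 70.6%, Myc-ESC H3K27me3 at 82.1% and 134 LIF-only peaks. At 2000 bp these were 668 beside 395, 13.3, H3K4me3 at 55.7%, a median of 426 bp and 52 LIF-only peaks. A Suz12 score of at least 100 for the neighbouring peak gave 833 flanking peaks, a ratio of 16.8, a median of 1401 bp, shares of 85.8, 39.5 and 87.6% and 44 LIF-only peaks. Merging Suz12 within 3000 bp gave a median of 856.5 bp and H3K4me3 and LIF-ESC H3K27me3 at 68.9 and 35.4%. Outer distances of 5000 and 20000 bp gave ratios of 40.9 and 11.9. Of the settings chosen after seeing the data, leaving out the dense stretches gave a ratio of 18.3 and H3K4me3 at 69.9%, and leaving out peaks at least 50% masked a ratio of 32.5. Lists shorter or filtered by score hold fewer peaks by construction. Otherwise the cause was not tested. The genes flanked numbered 520 and 447 with windows of 5000 and 1000 bp.

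No paired analysis was possible because each deposited list covers a culture and antibody without columns or lists per replicate, and leaving out a replicate was not possible for the same reason. Depth is unknown, and a peak below the calling limit of a list is not seen in it.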

Other observations

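On chromosome Y, 64 Myc-ESC H3K27me3 peaks were listed and 0 were flanking peaks. Chromosome 8 had the most flanking peaks, 170 of its 1655 Myc-ESC H3K27me3 peaks, followed by chromosome 2 with 135 of 1752 and chromosome 7 with 131 of 1362. In the stretch of chromosome 4 that holds Gpr63's neighbours Fut9, Fhl5 and Ufl1 (chr4:25000001-26000000), LIF-ESCs had no H3K27me3 or Suz12 peak and Myc-ESCs had 28 H3K27me3 and 4 Suz12 peaks, of which 13 H3K27me3 peaks were flanking. In the stretch chr7:39000001-40000000, LIF-ESCs likewise had none of either, and Myc-ESCs had 21 H3K27me3 and 3 Suz12 peaks, with 11 flanking peaks beside a single Suz12 peak of 222 bp. H3K4me3 peaks in these stretches numbered 8 and 7, and 11 and 12, in LIF-ESCs and Myc-ESCs.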
